A study of Mus musculus with 12 samples.

Results

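The 10 genes described here, Dapl1, Tmem179, Meltf, Rasd2, Sgcz, Vsnl1, Lmx1b, Tnr, Lancl3 and Dok7, were picked out of 54532 listed Ensembl genes because their read counts were among those most reduced in Sirt3 knockout islets. Each symbol matched 1 Ensembl gene, and all 10 passed the filter on low counts that left 16076 genes for testing. RNA was sequenced from pancreatic islets, small endocrine organs in which beta cells secrete insulin, of male C57BL/6 mice labelled as 40 weeks old. Sirt3 encodes a mitochondrial NAD-dependent deacetylase. The 12 libraries formed 4 groups of 3: beta-cell-selective Sirt3 knockout on a high fat diet (HFD KO), wild type on the same diet (HFD WT), knockout on a standard diet (STD KO) and wild type on the standard diet (STD WT). The high fat diet supplied 60% of calories as fat and lasted 36 weeks, while the standard diet held 6.2% fat. Before it, HFD WT mice had 4 weeks of standard food, HFD KO 1 and HFD KO 3 had 6 weeks, and HFD KO 2 had 5 weeks, so genotype and this earlier period cannot be told apart within the high fat groups. For HFD KO mice these periods add up to more than the labelled age, and the labels do not settle which holds. The promoter behind the beta cell deletion, any Cre allele in the WT mice, and whether libraries came from separate animals are left unstated by the labels, so p-values here reflect spread among the libraries, which may be technical.

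The genes have no single pathway in common. Several encode proteins best known from nerve and muscle. Vsnl1 encodes visinin-like protein 1, a calcium sensor of neurons; Rasd2 encodes Rhes, a Ras-like GTPase of the striatum that dampens G protein signalling; Tnr encodes tenascin-R, a matrix glycoprotein of the nets around neurons; and Lmx1b encodes a LIM homeodomain factor that specifies serotonergic neurons. Dok7 encodes the cytoplasmic activator of the kinase MuSK at the neuromuscular junction, and Sgcz encodes zeta-sarcoglycan of the dystrophin-glycoprotein complex. Meltf encodes melanotransferrin, a membrane-anchored protein of the transferrin family. Lancl3 encodes a relative of the LanC-like proteins, Dapl1 a small relative of death-associated protein, and Tmem179 a membrane protein for which no role is stated here.

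The 10 genes lay on 7 chromosomes of mm10, by the GENCODE M21 gene models. Dapl1 (ENSMUSG00000026989) spans 59484653 to 59505020 on the plus strand of chromosome 2, and Lmx1b (ENSMUSG00000038765) spans 33560965 to 33640511 on the minus strand of the same chromosome. Tmem179 (ENSMUSG00000054013, 112500189 to 112516747) and Vsnl1 (ENSMUSG00000054459, 11325242 to 11436613) both lie on the minus strand of chromosome 12. Rasd2 (ENSMUSG00000034472, plus strand, 75213944 to 75224113) and Sgcz (ENSMUSG00000039539, minus strand, 37522298 to 38661508) both lie on chromosome 8. The others are Tnr (ENSMUSG00000015829) on chromosome 1, Dok7 (ENSMUSG00000044716) on chromosome 5, Meltf (ENSMUSG00000022780) on chromosome 16 and Lancl3 (ENSMUSG00000047344) on chromosome X. Their extents ran from 10170 bp for Rasd2 to 1139211 bp for Sgcz. Other annotated genes overlap Sgcz (4), Tnr (3), Lmx1b (1) and Lancl3 (1), and as the strand setting of the counting is not given, reads from these could not be told apart from those of the named gene.

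Promoter windows of 300 bases, 250 before and 50 after the annotated start, were read from the RefSeq table for GRCm38.p6, the assembly that mm10 denotes. They covered 9 of the 10 genes in 11 windows. The RefSeq starts need not match the GENCODE ends given above: the Tmem179 window lies inside the GENCODE gene and the Lmx1b window lies wholly upstream of it. Tmem179 had the deepest reduction of the 10 genes under both diets, narrowly so under the standard diet. Knockout levels of Dapl1 and Lmx1b moved in opposite directions with the diet. The windows of these genes are shown 5′ to 3′ with matched motifs in capitals, either CCAAT or TATAAA on either strand.
Dapl1 (chr2:59484403-59484702, plus strand): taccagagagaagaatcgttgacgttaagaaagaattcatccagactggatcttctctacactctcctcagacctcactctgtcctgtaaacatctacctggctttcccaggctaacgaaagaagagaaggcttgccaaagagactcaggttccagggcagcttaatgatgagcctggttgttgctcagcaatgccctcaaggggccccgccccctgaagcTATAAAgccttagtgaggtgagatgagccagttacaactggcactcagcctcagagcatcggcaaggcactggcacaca
Tmem179 (chr12:112511111-112511410, minus strand): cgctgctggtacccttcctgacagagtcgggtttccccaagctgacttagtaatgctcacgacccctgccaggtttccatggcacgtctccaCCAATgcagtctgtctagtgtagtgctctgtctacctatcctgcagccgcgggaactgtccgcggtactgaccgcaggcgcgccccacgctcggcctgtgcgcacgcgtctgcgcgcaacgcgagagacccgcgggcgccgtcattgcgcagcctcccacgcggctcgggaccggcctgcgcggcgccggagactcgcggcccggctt
Lmx1b (chr2:33641049-33641348, minus strand): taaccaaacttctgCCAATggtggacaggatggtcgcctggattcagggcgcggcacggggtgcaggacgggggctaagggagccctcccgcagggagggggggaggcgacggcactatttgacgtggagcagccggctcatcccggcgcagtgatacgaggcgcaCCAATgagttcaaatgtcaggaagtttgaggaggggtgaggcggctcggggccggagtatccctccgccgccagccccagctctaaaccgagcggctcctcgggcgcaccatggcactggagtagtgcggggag
The Dapl1 window had TATAAA with its first base 29 bases before the start (position -29), 51.0% GC and 5 CpG dinucleotides. The Tmem179 window had 67.3% GC and 36 CpG, more CpG than 93.8% of all 32841 windows in the table, and the Lmx1b window had 65.7% GC and 24 CpG. The median over all windows was 52.7% GC and 7 CpG. TATAAA was in 1 of the 11 windows of the 10 genes, against 13.6% of all windows, and CCAAT was in 5 of 11, against 37.4%. TTCNNNGAA, the STAT dimer motif, was in 0 of 11 windows, against 8.3% of all windows. The same held for TGACGTCA (1.79% of all), TAATTA (5.29%) and CAGCTG (16.3%). The motifs were searched on both strands and none overlaps another in these windows. A match is only a match of letters, and its absence speaks only of these windows.

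Libraries held 16037709 to 20864920 assigned reads, and detected 20386 to 22360 genes. Ins2 held 13.2% to 25.4% of all counts in these libraries, and the alpha cell hormone gene Gcg had at least 254693 reads and the delta cell hormone gene Sst at least 34472 reads in each library. Sirt3 itself stood at 7.85, 11.5 and 6.21 CPM in HFD KO libraries, against 11.4, 9.30 and 11.8 CPM in HFD WT libraries (CPM, reads per 1e6 of the TMM-scaled library total). It stood at 6.59, 5.97 and 5.86 CPM in STD KO libraries, against 9.04, 11.3 and 11.5 CPM in STD WT libraries. The library labelled HFD KO 2 lay inside the WT range for Sirt3, whereas STD KO libraries all lay below STD WT libraries. The count covers the whole gene in all islet cells, so it is a weak check of a beta cell deletion. STD WT 3 also stood apart, with 43.5 CPM of the serotonin-synthesis gene Tph1, where STD WT 1 had 1.33 CPM and STD WT 2 had 0.70 CPM. The 10 genes cannot check either label, since they were chosen for being lower in KO libraries.

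The values that chose the 10 genes, the differences between KO and WT, are given as a description with no test. In every one of the 10, all KO libraries lay below all WT libraries within each diet, and all 6 KO libraries lay below all 6 WT libraries over both diets. Of all 16076 genes tested, 13.3% showed this order under the high fat diet, 7.32% under the standard diet, 3.2% within each diet at once and 2.37% over all 6 against 6. As the choice of the genes fixes such an order, nothing is read from the count. The median log2 fold change of the 10 genes was -2.44 under the high fat diet and -2.18 under the standard diet, where the medians of all genes were 0.00 and -0.02. In bulk islets, fewer expressing cells and less RNA per cell cannot be told apart.

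**Figure D1:**
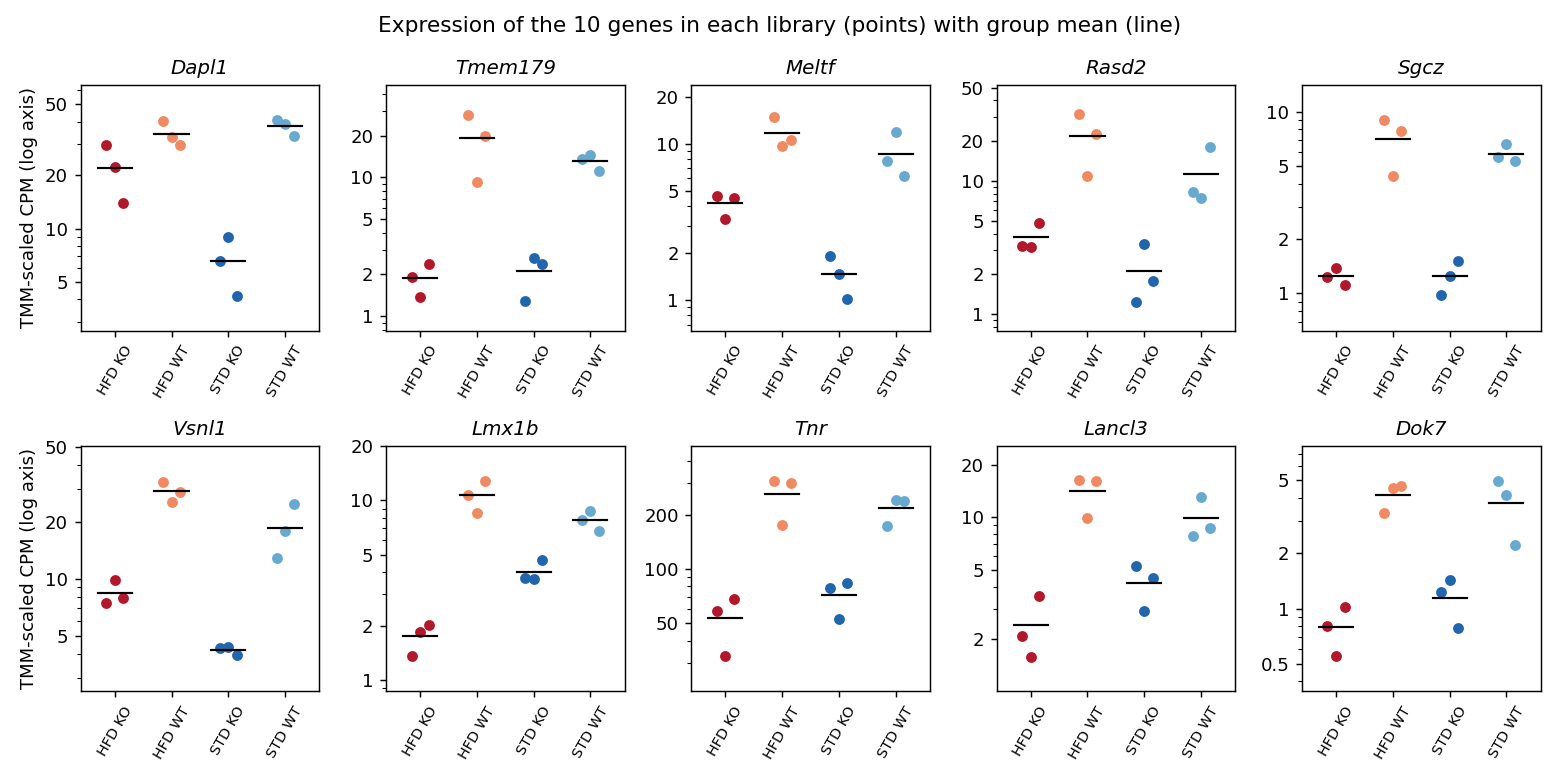
Expression of each of the 10 genes in CPM (log axis) by group, with 1 point per library and the group mean as a line. Each KO group lies below the WT group of its diet in every panel. The closest pair is Dapl1 under the high fat diet, where HFD KO 1 at 29.48 CPM nearly meets HFD WT 3 at 29.50 CPM.

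Tmem179 had the largest difference of the 10 genes under both diets, though narrowly under the standard diet. It stood at 1.92, 1.38 and 2.38 CPM in HFD KO libraries, against 28.3, 9.18 and 19.8 CPM in HFD WT libraries, which is 10.0-fold lower (log2 fold change -3.32, SE 0.41). In STD KO libraries it had 1.29, 2.62 and 2.39 CPM, against 13.5, 14.4 and 11.03 CPM in STD WT libraries (log2 fold change -2.63, SE 0.40). Meltf (-2.55) and Dapl1 (-2.52) came close to it under the standard diet. Without STD KO 1 the standard diet value of Tmem179 was -2.37, against -2.78 for Meltf. Its counts in KO libraries were low, 20 to 49 reads per library. Knockout levels of Tmem179 overlapped between the diets, at 1.89 ± 0.50 CPM in HFD KO and 2.10 ± 0.71 CPM in STD KO libraries (SD, n = 3 each).

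The differences of Sgcz and Rasd2 were of similar size under both diets, with gaps between the log2 fold changes (high fat minus standard) of -0.28 for Sgcz and -0.13 for Rasd2, where that of Tmem179 was -0.69. Sgcz stood at 1.24, 1.38 and 1.12 CPM in HFD KO libraries, against 8.96, 4.41 and 7.83 CPM in HFD WT libraries (log2 fold change -2.50, SE 0.30). It stood at 0.98, 1.25 and 1.51 CPM in STD KO libraries, against 5.60, 6.65 and 5.35 CPM in STD WT libraries (log2 fold change -2.22, SE 0.30). Counts of Sgcz in KO libraries were low, 19 to 31 reads per library. Rasd2 stood at 3.21, 3.18 and 4.85 CPM in HFD KO libraries, against 31.7, 10.9 and 22.6 CPM in HFD WT libraries (log2 fold change -2.53, SE 0.50). Rasd2 had 1.24, 3.36 and 1.76 CPM in STD KO libraries, against 8.26, 7.35 and 17.9 CPM in STD WT libraries (log2 fold change -2.40, SE 0.50). Its WT levels spread widely, and without STD WT 3, its highest STD WT library, the log2 fold change under the standard diet was -1.88.

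The differences of Dapl1 and Meltf were larger under the standard diet than under the high fat diet. Dapl1 stood at 29.5, 22.3 and 13.9 CPM in HFD KO libraries, against 40.5, 32.7 and 29.5 CPM in HFD WT libraries, and the groups only just missed each other (log2 fold change -0.65, SE 0.29). Without HFD KO 1 that value was -0.92, and without HFD KO 3 it was -0.40. In STD KO libraries Dapl1 stood at 6.54, 8.93 and 4.20 CPM, against 41.0, 38.8 and 33.1 CPM in STD WT libraries, 5.75-fold lower (log2 fold change -2.52, SE 0.31). The WT groups of the diets overlapped, whereas the KO groups did not. Meltf stood at 4.64, 3.31 and 4.51 CPM in HFD KO libraries, against 14.9, 9.72 and 10.6 CPM in HFD WT libraries (log2 fold change -1.49, SE 0.31). It stood at 1.91, 1.48 and 1.03 CPM in STD KO libraries, against 7.80, 11.98 and 6.18 CPM in STD WT libraries (log2 fold change -2.55, SE 0.32). Vsnl1, the calcium sensor, was also slightly further apart under the standard diet. It had 7.48, 9.87 and 7.95 CPM in HFD KO libraries, against 32.6, 25.6 and 28.9 CPM in HFD WT libraries (log2 fold change -1.78, SE 0.22). Vsnl1 had 4.33, 4.38 and 3.96 CPM in STD KO libraries, against 12.9, 17.8 and 25.0 CPM in STD WT libraries (log2 fold change -2.13, SE 0.23). Without STD WT 3, its highest STD WT library, the log2 fold change of Vsnl1 under the standard diet was -1.86, near the high fat value. Its STD KO libraries were the tightest of its 4 groups, with an SD of 0.23 CPM.

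Like Tmem179, Lmx1b, Lancl3, Dok7 and Tnr differed more under the high fat diet. Lmx1b stood at 1.36, 1.86 and 2.04 CPM in HFD KO libraries, against 10.8, 8.46 and 12.9 CPM in HFD WT libraries, 6.07-fold lower (log2 fold change -2.60, SE 0.24). In STD KO libraries Lmx1b stood at 3.71, 3.64 and 4.69 CPM, against 7.80, 8.68 and 6.79 CPM in STD WT libraries, 1.93-fold lower (log2 fold change -0.95, SE 0.23). All HFD KO libraries lay below all STD KO libraries, the reverse of Dapl1. Lancl3 had 2.10, 1.59 and 3.54 CPM in HFD KO libraries, against 16.3, 9.90 and 16.0 CPM in HFD WT libraries (log2 fold change -2.53, SE 0.36). Lancl3 had 5.26, 2.90 and 4.49 CPM in STD KO libraries, against 7.84, 13.1 and 8.69 CPM in STD WT libraries (log2 fold change -1.22, SE 0.34). Its KO groups overlapped between the diets.

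Dok7 was the least expressed of the 10, with 8 to 25 reads in KO libraries. It stood at 0.80, 0.55 and 1.02 CPM in HFD KO libraries, against 3.32, 4.53 and 4.69 CPM in HFD WT libraries (log2 fold change -2.38, SE 0.38). It stood at 1.24, 1.42 and 0.78 CPM in STD KO libraries, against 4.95, 4.18 and 2.23 CPM in STD WT libraries (log2 fold change -1.72, SE 0.37). Tnr was the most abundant of them by CPM. Tnr stood at 58.6, 32.8 and 68.4 CPM in HFD KO libraries, against 309, 175 and 300 CPM in HFD WT libraries (log2 fold change -2.29, SE 0.31). It stood at 78.9, 52.7 and 83.8 CPM in STD KO libraries, against 174, 243 and 240 CPM in STD WT libraries (log2 fold change -1.61, SE 0.31). Even the highest KO library of Tnr lay well below the lowest WT library.

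**Figure D2:**
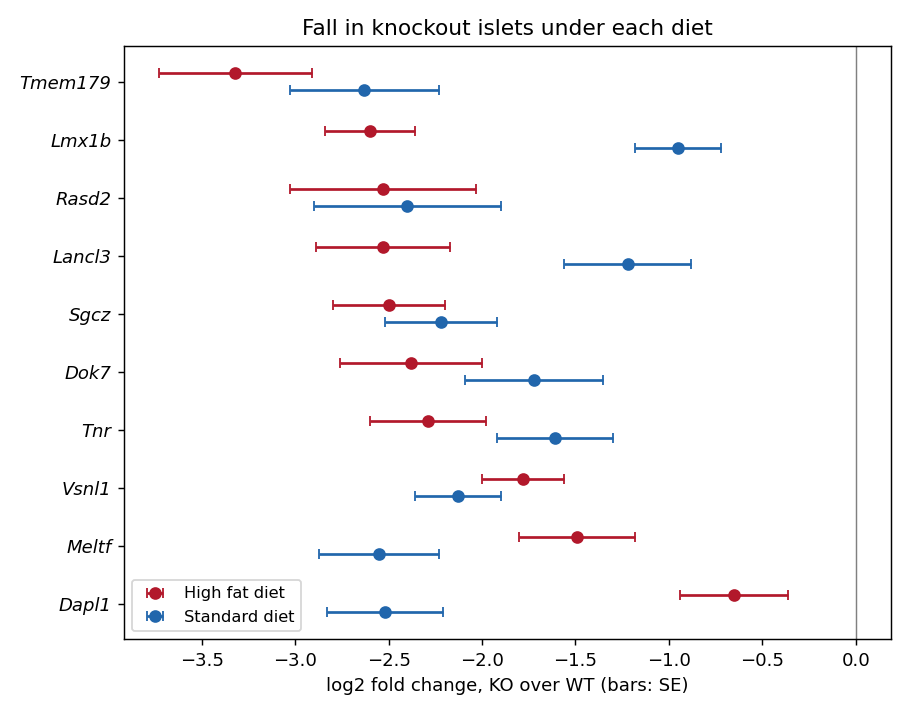
Log2 fold change of KO over WT for each gene under the high fat diet (red) and the standard diet (blue), with bars of 1 SE from edgeR. Tmem179 lies lowest under both diets at -3.32 and -2.63, under the standard diet close to Meltf at -2.55. The diets are furthest apart for Dapl1 (-0.65 and -2.52) and Lmx1b (-2.60 and -0.95).

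The difference from WT was larger under the high fat diet for 7 of the 10 genes. It was larger under the standard diet for Dapl1, Meltf and, only slightly, Vsnl1. High fat minus standard, the gap between the log2 fold changes ran from -1.65 for Lmx1b to 1.88 for Dapl1. This gap was not tested, since the genes were chosen on its components. Among the 13101 genes with a mean of at least 2 CPM, ordered by log2 fold change, Dapl1 ranked 947 under the high fat diet and 17 under the standard diet. Lmx1b ranked 4 under the high fat diet and 142 under the standard diet. Tmem179 ranked 2 under the high fat diet and 15 under the standard diet, and the genes ahead of it, 1 under the high fat and 14 under the standard diet, included 0 past an adjusted p of 0.05. The smallest difference among the 10 under the high fat diet, that of Dapl1, lay between Mllt6 and B4galt6, and under the standard diet that of Lmx1b lay between Ctnnbip1 and Th.

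Per length of transcript, the 10 genes ranged from sparse to abundant in WT islets. In the authors' FPKM (fragments scaled by transcript length and library total), averaged over the 6 WT libraries, Tnr had 62.3, above 92.2% of the genes tested, and Dapl1 had 56.9, above 91.4%. Vsnl1 (12.8), Tmem179 (10.7) and Rasd2 (7.67) stood near the middle of the range, above 63.6%, 59.0% and 51.2% of genes. Lmx1b (4.04), Lancl3 (2.90), Meltf (2.39), Sgcz (2.31) and Dok7 (1.85) stood above 25.6% to 37.5% of genes. The length behind the FPKM was well below that of all annotated exons for Tnr (3733 of 12867 bp), Lmx1b (2229 of 4880 bp) and Dok7 (2126 of 4275 bp). These places therefore depend on the length used. In HFD KO libraries Tnr averaged 14.0 ± 5.86 FPKM, against 66.9 ± 16.7 FPKM in HFD WT libraries (SD, n = 3 each). Dok7 averaged 0.37 ± 0.14 FPKM in HFD KO libraries, against 1.91 ± 0.45 FPKM in HFD WT libraries (SD, n = 3 each).

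The diet effect averaged over both genotypes was tested, as the genes were chosen on differences between KO and WT levels. In this balanced design the sum of KO and WT levels is uncorrelated with their difference only where both spread equally. Low KO counts need not meet this. The diet average may thus carry part of the choice, so the shares below do not test the 10 genes as a set. With edgeR's quasi-likelihood test and Benjamini-Hochberg adjustment over all genes, 0 of the 10 genes passed an adjusted p of 0.05, where 4 of all 16076 genes (0.0249%) did, 0.00622% higher and 0.0187% lower. At an unadjusted p under 0.05 it was 5 of 10 genes, against 7.45% of all genes. DESeq2 called 3 of the 10, Vsnl1 (adjusted p = 0.00272), Meltf (adjusted p = 0.0138) and Dapl1 (adjusted p = 0.0463), against 0.551% of all genes with an adjusted p. Genes chosen for a clear genotype difference tend to have a small estimated spread, which the diet test shares, so these p-values may be too small.

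Vsnl1 had the smallest p: high fat over standard diet, its log2 fold change was 0.82 (95% interval 0.48 to 1.16, adjusted p = 0.179 by edgeR). Both genotypes had the same direction, at 1.0 in KO and 0.65 in WT libraries, and every HFD library lay above every STD library of its genotype. Meltf had 0.97 (0.49 to 1.45, adjusted p = 0.256 by edgeR), with 1.5 in KO and 0.44 in WT libraries, and Rasd2 had 0.90 (0.14 to 1.65, adjusted p = 0.656 by edgeR). For Dapl1 the average of 0.80 (0.35 to 1.25, adjusted p = 0.379 by edgeR) combined 1.74 in KO with -0.14 in WT libraries. Lmx1b, at -0.36 (-0.72 to -0.01, adjusted p = 0.664 by edgeR), combined -1.19 in KO with 0.46 in WT libraries. The intervals of Tmem179 (-0.39 to 0.81), Sgcz (-0.32 to 0.58), Tnr (-0.55 to 0.38), Lancl3 (-0.67 to 0.39) and Dok7 (-0.76 to 0.38) held 0, with adjusted p from 0.909 to 0.959 by edgeR. A p that misses the threshold does not show that these levels were equal.

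**Figure D3:**
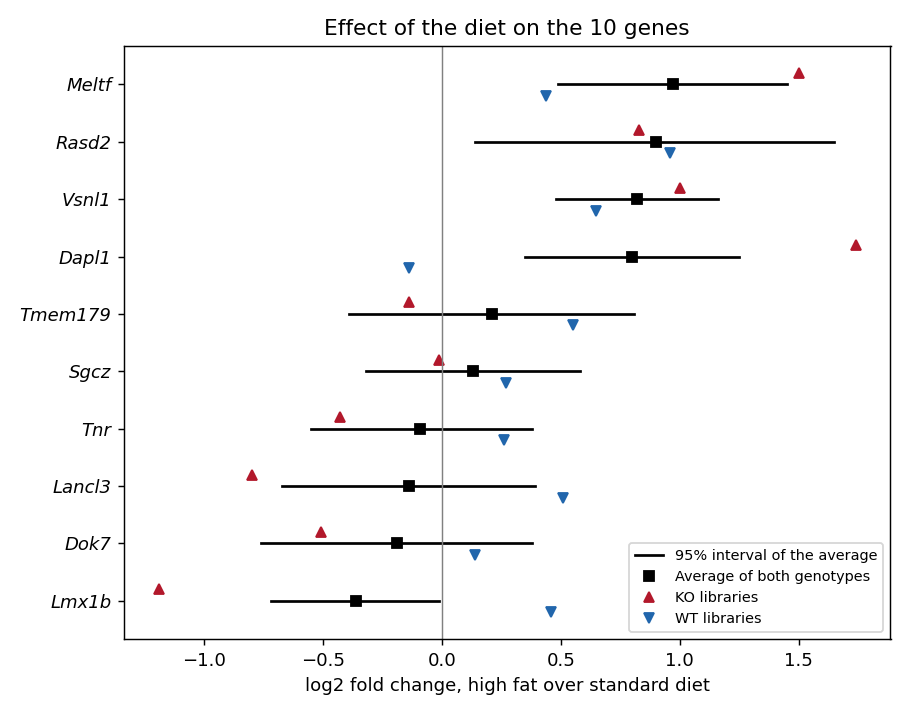
Log2 fold change of high fat over standard diet for each gene: the average of both genotypes (squares, with 95% interval), KO libraries alone (upward triangles) and WT libraries alone (downward triangles). The triangles lie close for Rasd2 and furthest apart for Dapl1 (1.74 and -0.14) and Lmx1b (-1.19 and 0.46).

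Within KO libraries, 3 of the 10 genes, Dapl1, Meltf and Vsnl1, had every HFD library above every STD library, an order that 5.91% of all genes tested showed. Lmx1b was the 1 gene with every HFD KO library below every STD KO library, where 6.23% of all genes stood. Within WT libraries, Vsnl1 alone of the 10 had every HFD library above every STD library (5.06% of all genes), and 0 of 10 had the reverse order (4.53% of all genes). These libraries also entered the choice of the genes, so the orders are descriptions.

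Libraries of a group differed in ways that several of the 10 genes shared. HFD WT 2 was the lowest of the HFD WT libraries for 8 of the 10 genes, against 41.4% of all genes tested, and HFD WT 1 was the highest for 8 of 10, against 38.5%. Tmem179 had 9.18 CPM in HFD WT 2 but 28.3 and 19.8 CPM in HFD WT 1 and HFD WT 3, and Rasd2 had 10.9 CPM there but 31.7 and 22.6 CPM. STD WT 3, with its raised Tph1, was the lowest STD WT library for 6 of the 10 genes, against 35.3% of all genes, while it was the highest for Rasd2 and Vsnl1. HFD KO 2, with Sirt3 in the WT range, was the lowest HFD KO library for 6 of the 10, against 42.0% of all genes. With 10 genes, counts of 6 lie close to such shares, so nothing is read from them for STD WT 3 or HFD KO 2.

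**Figure D4:**
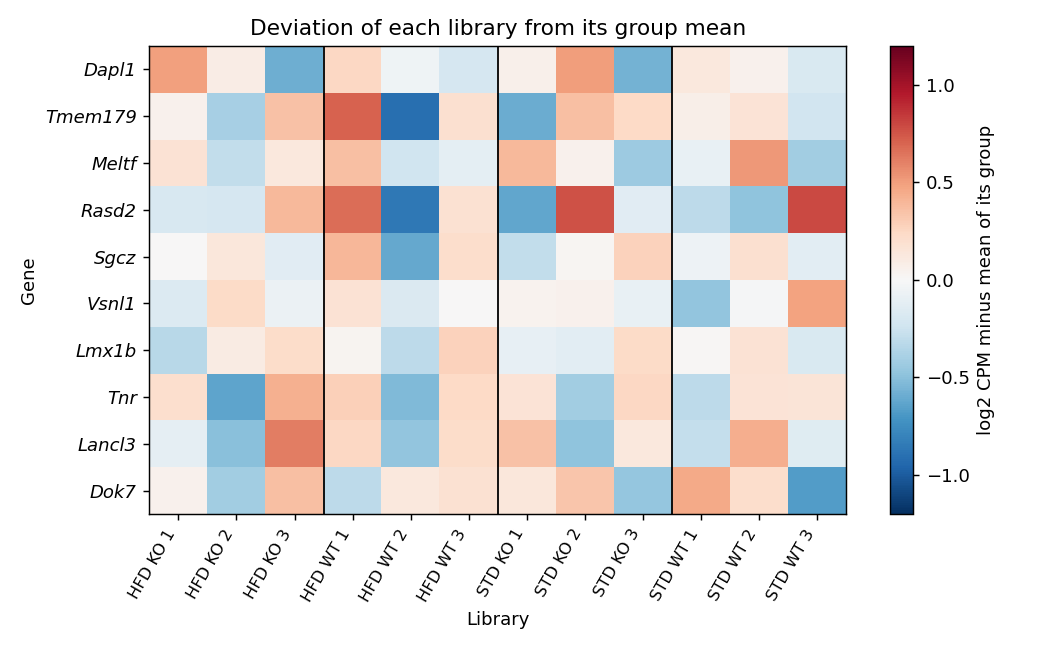
Log2 CPM of each gene in each library minus the mean of its group (colour, red above and blue below), with the 4 groups set apart by lines. HFD WT 2 lies furthest below its group mean for Tmem179 at -0.90 and Rasd2 at -0.86, and above it for Dok7 at 0.13.

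After group means were removed, Pearson correlations over the 12 libraries had a median of 0.14 over the 45 pairs of the 10 genes, and 33 pairs (73.3%) were positive. Over all 85811550 pairs of genes with at least 2 CPM the median was 0.00, with 50.1% positive. Tnr and Lancl3 (0.88), Tmem179 and Sgcz (0.78) and Tmem179 and Rasd2 (0.66) deviated together most, while Vsnl1 and Dok7 (-0.71) and Dapl1 and Lmx1b (-0.59) deviated in opposite directions. Correlated with the mean of the other 9, Tmem179 reached 0.80, whereas Dapl1 (-0.12), Dok7 (-0.06) and Vsnl1 (0.05) stood near 0. The points share libraries and depth, and these values are descriptions over 12 libraries.

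The genes whose log2 CPM most resembled each of the 10 across the 12 libraries were sought among 12481 named genes with at least 2 CPM. Lancl3 was closest to Eya1, a developmental transcriptional co-activator (Pearson r = 0.99), and to Ffar1, the fatty acid receptor of beta cells (0.989), which was also the closest to Tnr (0.987). Lmx1b resembled Fzd7, a Wnt receptor (0.982), and Nectin1, an adhesion molecule (0.979). Tmem179 (0.976) and Sgcz (0.963) had the same closest gene, Pgbd5, and Dok7 was closest to Mr1 (0.968). Rasd2 (0.959) resembled Pxylp1, Dapl1 (0.95) resembled Tmem218, Meltf (0.938) resembled the matrix link protein gene Hapln1, and Vsnl1 (0.924) resembled Cib3. All these correlations run over libraries that include the KO and WT difference, so they are given with no p.

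Relatives and partners of the 10 genes, 104 genes in 8 lists, were read from the genotype tests over all genes. The lists were drawn up with earlier results of these data known. Of the 86 tested, 6 rose and 5 fell in HFD KO libraries (12.8%, against 7.4% of all genes, 3.9% higher and 3.5% lower; limma on log2 of FPKM plus 1 called 679 of all genes higher and 373 lower, where edgeR called 627 and 562), with a median log2 fold change of 0.05. In STD KO libraries 3 rose and 1 fell (4.65%, against 1.71% of all genes, 1.34% higher and 0.367% lower), with a median of 0.00. Among close family members, 19 tested, 1 fell and 1 rose under the high fat diet and 0 passed under the standard diet, with medians of 0.22 and -0.03. The one that rose was Sgca, a relative of Sgcz (adjusted p = 0.0209 by edgeR), described with its complex. Hpcal1, a calcium sensor related to Vsnl1, fell to 31.4 ± 1.83 CPM in HFD KO libraries, against 46.2 ± 1.47 CPM in HFD WT libraries (SD, n = 3 each; adjusted p = 0.00628 by edgeR). It did not pass under the standard diet (log2 fold change -0.30, adjusted p = 0.287 by edgeR). Of the 8 neuronal calcium sensors and related channel-interacting proteins tested, Hpcal1 was the 1 called under the high fat diet and 0 were called under the standard diet, with medians of -0.36 and -0.30.

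Among 8 tested matrix partners of tenascin-R, Hapln1, whose product links hyaluronan to proteoglycans, fell under both diets. It averaged 16.8 ± 3.63 CPM in HFD KO libraries, against 40.2 ± 6.47 CPM in HFD WT libraries (SD, n = 3 each; edgeR log2 fold change -1.26 ± 0.23 SE, adjusted p = 0.00631). It averaged 11.1 ± 0.80 CPM in STD KO libraries, against 37.8 ± 10.8 CPM in STD WT libraries (SD, n = 3 each; edgeR log2 fold change -1.77 ± 0.23 SE, adjusted p = 0.00205). Leaving out any 1 library kept both calls. Nrcam, a neural adhesion molecule, fell (-1.19, adjusted p = 0.0167 by edgeR) and Hapln4 rose (0.80, adjusted p = 0.042 by edgeR) under the high fat diet, with a list median of -0.50. Nrcam lost its call without HFD KO 2, HFD WT 1 or HFD WT 3 (adjusted p up to 0.0657), and Hapln4 lost it in 9 of the 12 fits without 1 library, those without HFD KO 1, HFD KO 3, HFD WT 2, HFD WT 3, any STD KO library, STD WT 2 or STD WT 3 (adjusted p up to 0.158). Hapln4 also missed the threshold in the edgeR fit blocked by replicate number (adjusted p = 0.0567). Under the standard diet 1 fell and 0 rose, with a median of -0.22.

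Of 15 tested Lmx1b-related and serotonergic genes, 2 rose and 2 fell in HFD KO libraries. The serotonin-synthesis genes Tph1 and Tph2 rose (adjusted p = 0.00378 and 0.00046 by edgeR) and the endocrine transcription factor genes Foxa2 (-0.81, adjusted p = 0.0106) and Insm1 (-0.84, adjusted p = 0.011) fell, all by edgeR. Foxa2 lost its call without HFD WT 3 (adjusted p = 0.0525), and Insm1 without HFD KO 1 or HFD WT 3 (adjusted p up to 0.066). Tph2 averaged 28.1 ± 4.38 CPM in HFD KO libraries, against 0.62 ± 0.16 CPM in HFD WT libraries, and 21.8 ± 2.26 CPM in STD KO libraries, against 1.76 ± 1.65 CPM in STD WT libraries (SD, n = 3 each). Lmx1b, which specifies serotonergic neurons, was lower in the KO libraries in which both tryptophan hydroxylase genes were higher. Since Lmx1b was chosen for being lower in KO libraries, nothing is read from this, and a link was not tested. Tph1 did not pass under the standard diet (adjusted p = 0.0874 by edgeR). Tph2 was the 1 gene of the list called under the standard diet (adjusted p = 0.00541 by edgeR), and the list medians were -0.12 under the high fat and 0.03 under the standard diet.

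Among 11 tested genes of iron uptake, storage and export, of which Ltf is of the transferrin family as Meltf is, the iron exporter gene Slc40a1 was the 1 called under each diet. It rose to 86.4 ± 16.4 CPM in HFD KO libraries, against 28.9 ± 4.48 CPM in HFD WT libraries (SD, n = 3 each; log2 fold change 1.58, adjusted p = 0.00169 by edgeR). It rose to 84.2 ± 21.1 CPM in STD KO libraries, against 25.1 ± 5.86 CPM in STD WT libraries (SD, n = 3 each; log2 fold change 1.74, adjusted p = 0.00199 by edgeR). The list medians were -0.04 under the high fat and 0.06 under the standard diet. Of 13 G protein signalling genes near Rasd2, the regulator Rgs4 rose under the high fat diet (1.73, adjusted p = 0.00268 by edgeR) and the inhibitory subunit gene Gnai2 rose under the standard diet (0.82, adjusted p = 0.0106 by edgeR), with medians of 0.17 and 0.12. The Gnai2 call was lost without STD KO 1, STD KO 2, STD WT 1 or STD WT 2 (adjusted p up to 0.0767).

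For Dok7 and Sgcz the muscle partners were mostly uncalled. Musk itself, with at most 2 reads in any library, and the acetylcholine receptor genes Chrna1, Chrnd and Chrne, with at most 7, were not tested. None of 8 tested genes of agrin and MuSK signalling passed under either diet by edgeR, with medians of 0.05 under the high fat and -0.04 under the standard diet; the smallest adjusted p was that of Ache (-0.49, adjusted p = 0.0551, high fat diet). Lrp4, the agrin receptor gene, had a log2 fold change of -0.75 under the high fat and -0.70 under the standard diet (adjusted p = 0.958 by edgeR for the standard diet). Of 14 tested genes of the dystrophin-glycoprotein complex, Sgca, encoding alpha-sarcoglycan, rose in HFD KO libraries to 2.32 ± 1.63 CPM, against 0.25 ± 0.10 CPM in HFD WT libraries (SD, n = 3 each; adjusted p = 0.0209 by edgeR). That call was lost without HFD KO 1, HFD KO 2, HFD WT 1 or HFD WT 3 (adjusted p up to 0.115). The medians of this list were 0.15 under the high fat and -0.06 under the standard diet, with 0 called under the standard diet.

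Markers of other cells were summed beside these values, and their part in the lower levels was not tested. Skeletal and smooth muscle markers summed to 23.8 to 52.9 CPM in HFD KO libraries, against 16.1 to 35.1 CPM in HFD WT libraries, and to 14.6 to 58.6 CPM in STD KO libraries, against 27.6 to 43.9 CPM in STD WT libraries. Most of this came from Myh11 (group means of 16.9 to 22.6 CPM) and Des (6.04 to 10.2 CPM), which is also in the stellate list. The skeletal markers Ckm, Myh1, Myh4 and Tnnt3 had at most 2 reads in any library, so the sum says little of skeletal muscle. Neuron and Schwann cell markers summed to 221 to 262 CPM in HFD KO libraries, against 170 to 261 CPM in HFD WT libraries, and to 202 to 260 CPM in STD KO libraries, against 196 to 265 CPM in STD WT libraries. Both ranges overlapped between genotypes under each diet. The ranges also overlapped for beta, delta and PP, acinar, ductal, endothelial, stellate and lymphocyte markers under both diets. They did not overlap for alpha cell markers under the standard diet, at 18000 to 26300 CPM in STD KO libraries, against 28100 to 35500 CPM in STD WT libraries, nor for macrophage and myeloid markers, at 284 to 387 CPM in STD KO libraries, against 259 to 282 CPM in STD WT libraries. Under the high fat diet the ranges of both these lists overlapped. Of single markers, the test called Ucn3 and Slc30a8 of 14 beta cell genes lower in HFD KO libraries, and 0 of 14 under the standard diet. All markers of these 11 lists had counts in at least 1 library.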

How the data were processed

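Read counts and FPKM per Ensembl gene were deposited by the authors for each library. Per the submitters' processing notes, TopHat2, Cufflinks and DESeq were used with mm10; the counter, annotation and strand were not given in the sources used here. The deposited FPKM equalled count over length and total for all 257939 values compared (largest relative deviation 2.46e-07). The members and lists were chosen with earlier results of these data known. Counts were fitted with edgeR 4.0.16 (R 4.3.3; quasi-likelihood, robust, TMM, filterByExpr with a minimum count of 10), with 1 mean per group over 12 libraries, which left 16076 genes. P-values were Benjamini-Hochberg adjusted over all of them, with a threshold of 0.05. DESeq2 1.42.0 and limma 3.58.1 (log2 of FPKM plus 1 or 0.1) served as alternatives, with other filters, a replicate block and each library left out. Symbols came from an Ensembl table (54409 of 54532 IDs matched). Deviations of same-numbered libraries correlated at 0.551, 0.475 and 0.416 between HFD KO and HFD WT, but at 0.0603, -0.175 and -0.27 between STD KO and STD WT. Some differently numbered libraries of other groups correlated as strongly (HFD WT 2 with STD WT 1 at 0.592, HFD WT 1 with STD WT 3 at 0.517). These values do not settle whether libraries were paired. Named were the 10 genes and Sirt3, of each list up to 4 genes called for genotype (else the 2 of smallest p), neighbours in rank, and the 2 genes most correlated with each member; not all are printed, a choice made with their values known. The fit was tested on simulated data. Intervals and spreads cover these libraries only.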

Additional observations from a re-analysis of the deposited data

How the results depend on the processing

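The genotype folds were smaller with limma on log2 of FPKM plus 1, whose pseudocount shrinks low genes. Under the standard diet limma gave -1.96 for Tmem179 (-2.63 by edgeR), -1.13 for Meltf (-2.55), -1.07 for Sgcz (-2.22) and -1.54 for Rasd2 (-2.40). It gave -1.62 for Vsnl1 (-2.13), -0.78 for Dok7 (-1.72), -0.67 for Lancl3 (-1.22) and -0.59 for Lmx1b (-0.95) under that diet. Dapl1, at -2.34 by limma under the standard diet, then had a larger difference than Tmem179. Under the high fat diet limma gave -2.48 for Tmem179 (-3.32), -0.91 for Meltf (-1.49), -1.25 for Sgcz (-2.50) and -1.92 for Rasd2 (-2.53). It gave -1.09 for Dok7 (-2.38), -1.46 for Lancl3 (-2.53) and -1.67 for Lmx1b (-2.60) under the high fat diet. The average diet effect of Tnr (-0.09; -0.19 to 0.04 with 1 library left out) turned to 0.04 without HFD KO 2, 0.04 without HFD WT 2 and 0.06 without both HFD KO 2 and STD WT 3, a pair left out after seeing the data. Genes called for the diet average (4) numbered 88 by DESeq2, 11 with no filter, 1 by limma with either pseudocount, 1 with the replicate block, 1 without both libraries, and 0 to 7 with 1 library left out. For the standard diet genotype test (275) it was 484 by DESeq2, 135 with the replicate block on the compared groups alone, and 146 to 296 with 1 library left out. For the high fat diet (1189) it was 2033 by DESeq2, 543 from the compared groups alone, 745 without both libraries, and 519 (without HFD KO 1) to 2899 (without HFD KO 3) with 1 left out, with 759 without HFD KO 2, 744 without HFD WT 1 and 524 without HFD WT 3; the replicate block on all 12 libraries gave 1343 and, among the partner genes called under that diet, ended only the call of Hapln4. Of partner genes called, the standard diet (4) had 7 by DESeq2 and 3 to 5 with 1 library left out. With the block on the compared groups alone it had 2, as Tph2 (adjusted p = 0.232 by edgeR) and Gnai2 (adjusted p = 0.0833 by edgeR) lost their calls. Whether the STD numbers pair libraries is not known. The high fat diet (11) had 18 by DESeq2, 7 from the compared groups alone and 6 to 13 with 1 library left out. The cause was not tested. Low counts of Dok7, Sgcz and Sgca limit their precision.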
